A study of Mus musculus with 294 samples.

Results

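Among 294 mouse livers, the 73 livers with the highest and the 73 with the lowest expression of 2 chaperone genes of the endoplasmic reticulum (ER) were compared across all other genes. The livers were chosen by the measured values of these 2 genes. Hspa5, which encodes the ER chaperone BiP, and Creld2, which encodes an ER-resident disulfide isomerase, were turned into z scores over all livers, and their mean served as an index. Livers were ranked by the index within each of 2 classes, above and below an intensity of 5 on the log2 scale for Eif2s3y, a gene of the Y chromosome. The top 0.25 of each class formed the high-chaperone livers (36 Eif2s3y-high and 37 Eif2s3y-low) and the bottom 0.25 the low-chaperone livers (36 and 37). The 74 livers left in each class are called the middle livers.

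All animals were F2 offspring of B6/J and A/J, both inbred, and the labels placed them in 1 group with 1 Affymetrix array of liver RNA each. No treatment, diet, age, sex or time of sampling was stated, and no sex or genotype was assigned here. The 2 sets of livers were therefore defined by measured expression and are not a treated and an untreated group. Eif2s3y separated cleanly, with no liver between 3.03 and 6.97 on the log2 scale. The strain backgrounds, tissue and assay were shared by both sets, and each liver is a separate animal.

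Hepatocytes secrete most plasma proteins, which fold and gain disulfide bonds and N-glycans in the ER. When unfolded proteins build up there, the sensors IRE1, PERK and ATF6 start the unfolded protein response, in which the factors XBP1, ATF6 and ATF4 raise the genes of chaperones, degradation factors and amino acid supply. XBP1 and ATF6 act at promoters through the ER stress response element (ERSE), a CCAAT box and a CCACG box a fixed distance apart.

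The promoters of both index genes and of 4 high-ranking or central genes of the response are shown because each holds an exact match to the ERSE. They are the 250 bases before the annotated start, 5′ to 3′ on the strand of the gene, from RefSeq on build GRCm38.p6, and capitals mark matches to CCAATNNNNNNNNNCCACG on either strand.
Hspa5 (chr2:34771840-34772089, plus strand): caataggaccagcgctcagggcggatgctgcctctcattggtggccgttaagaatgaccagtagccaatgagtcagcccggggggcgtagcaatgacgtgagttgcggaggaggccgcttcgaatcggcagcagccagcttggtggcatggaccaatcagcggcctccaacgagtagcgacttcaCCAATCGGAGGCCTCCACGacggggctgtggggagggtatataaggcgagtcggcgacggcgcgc
Creld2 (chr15:88819396-88819645, plus strand): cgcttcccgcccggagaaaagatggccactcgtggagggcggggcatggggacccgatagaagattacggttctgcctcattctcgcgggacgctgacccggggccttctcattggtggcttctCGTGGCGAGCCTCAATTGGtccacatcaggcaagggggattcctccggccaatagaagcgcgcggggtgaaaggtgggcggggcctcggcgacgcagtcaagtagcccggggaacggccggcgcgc
Hsp90b1 (chr10:86705445-86705694, minus strand): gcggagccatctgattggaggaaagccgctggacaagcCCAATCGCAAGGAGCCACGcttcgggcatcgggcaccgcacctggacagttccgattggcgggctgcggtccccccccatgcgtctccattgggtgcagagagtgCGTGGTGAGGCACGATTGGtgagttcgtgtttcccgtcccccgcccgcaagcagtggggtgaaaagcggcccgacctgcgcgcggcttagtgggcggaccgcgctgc
Ero1b (chr13:12565633-12565882, plus strand): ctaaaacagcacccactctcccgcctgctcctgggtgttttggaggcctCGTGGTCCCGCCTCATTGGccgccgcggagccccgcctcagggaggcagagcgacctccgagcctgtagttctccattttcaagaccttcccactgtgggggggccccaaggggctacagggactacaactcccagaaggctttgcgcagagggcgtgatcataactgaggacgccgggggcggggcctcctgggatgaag
Derl3 (chr10:75893148-75893397, plus strand): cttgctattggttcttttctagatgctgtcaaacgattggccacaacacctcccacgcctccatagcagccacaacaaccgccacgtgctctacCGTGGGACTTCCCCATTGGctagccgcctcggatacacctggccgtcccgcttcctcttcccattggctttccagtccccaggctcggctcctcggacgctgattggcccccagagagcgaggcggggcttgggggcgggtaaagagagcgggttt
Syvn1 (chr19:6046326-6046575, plus strand): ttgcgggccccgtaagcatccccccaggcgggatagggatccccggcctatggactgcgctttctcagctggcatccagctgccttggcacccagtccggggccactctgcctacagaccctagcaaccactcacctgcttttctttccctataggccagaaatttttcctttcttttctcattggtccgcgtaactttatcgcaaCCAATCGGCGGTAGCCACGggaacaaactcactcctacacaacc
In the Hspa5 promoter the match ended 46 bases before the start and in Syvn1 25 bases before it, while Creld2, Derl3 and Ero1b held it farther away. Hsp90b1 held 2 matches, the nearer ending 88 bases before its start. The search covered 250 bases before to 50 bases after the start, where RefSeq gave a window for 13254 of the 16640 genes tested. The ERSE was found in 19 of these genes (0.143%), and a gene with several starts was counted if any window held it. Of the 19, 11 were higher in high-chaperone livers (Alg12, Calr, Canx, Derl3, Dnajc3, Ero1b, Hsp90b1, Pdia6, Syvn1, Acnat2 and Pan2), Acacb and Tdrd9 were lower, and 6 did not pass the test. Among genes with a window, 11 of 1388 called higher (0.793%) and 2 of 999 called lower (0.2%) held the element. Of those at least 1.2-fold higher 9 held it (5.88%), and of those at least 1.2-fold lower 1 of 82 (1.22%). The Alg12 and Creld2 windows overlap and hold the same match. A match describes the letters in the window and is not a measured binding site.

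Deposited intensities ran from 2.77 to 25519 on a linear scale and were compared as log2. The array medians spanned 21.1 to 23.2. Of all arrays, 32 correlated less well with the rest (a median r over 3 median absolute deviations under that of the typical array), and these were 12 high-chaperone, 15 middle and 5 low-chaperone livers. Acinar RNA of the pancreas was present in 10 livers, 2 of them high and 3 low. The titles divide the animals into 15 label blocks of unstated meaning, and a block held 1 to 9 high-chaperone and 1 to 8 low-chaperone livers.

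The index genes themselves are given as a description, since they chose the livers. Hspa5 ran from 10.44 through a median of 10.94 to 11.40 in low-chaperone livers and from 11.37 through 12.02 to 13.47 in high-chaperone livers. Creld2 ran from 6.81 through 7.44 to 8.09 in low and from 8.21 through 9.51 to 13.03 in high livers. The index at the lower edge of the high livers was 0.967 in the Eif2s3y-high class, where the nearest middle liver had 0.929, and 0.0120 in the Eif2s3y-low class, where the nearest had 0.000562. At the upper edge of the low livers it was -0.283 and -0.948, next to middle livers at -0.266 and -0.938. Ranking within classes thus placed Eif2s3y-low livers with an index of 0.0120 among the high livers, while Eif2s3y-high livers up to 0.929 were middle livers. Of the 73 high livers, 69 were also in the top 0.25 by Hspa5 alone and 66 by Creld2 alone.

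**Figure D1:**
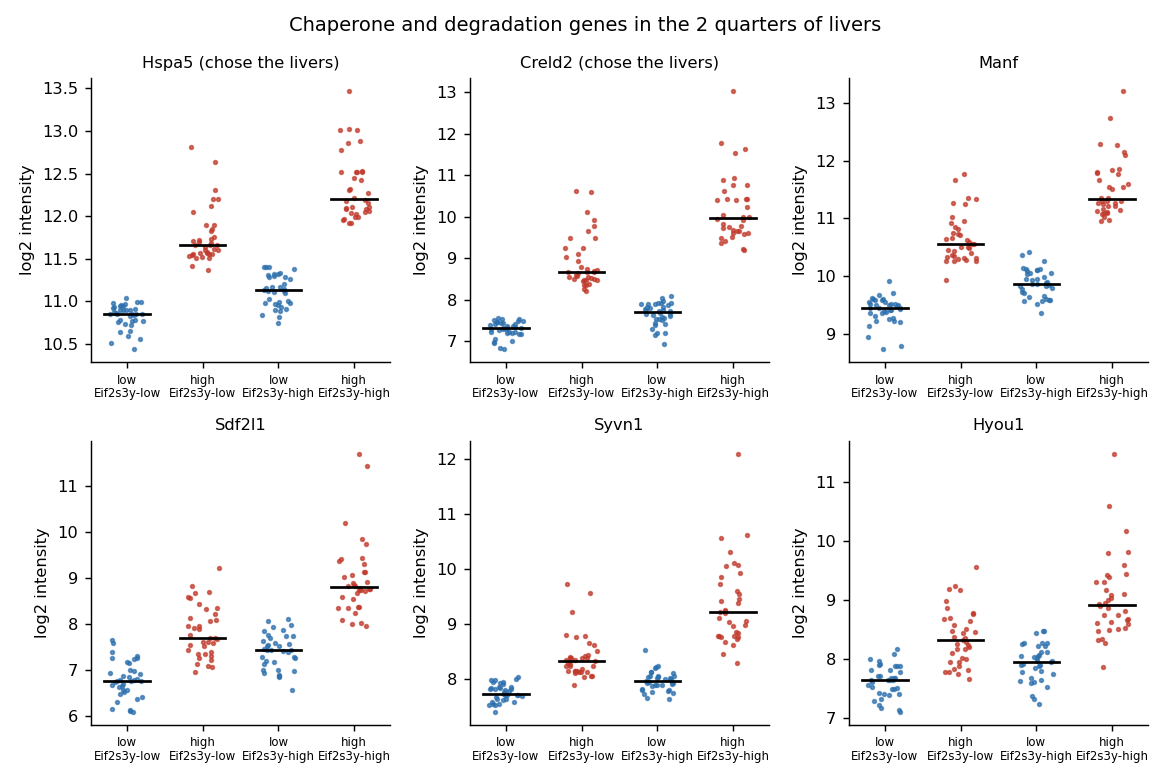
Log2 intensity of 6 genes in each liver of the 4 groups, low-chaperone in blue and high-chaperone in red, by Eif2s3y class, with the group median as a line. Hspa5 and Creld2 chose the livers, and Manf separates the 2 sets within each class without overlap, while Sdf2l1 and Hyou1 overlap. In the Eif2s3y-high class 32 (Sdf2l1) and 31 (Hyou1) of 36 high livers lie above every low liver, and in the Eif2s3y-low class 21 and 23 of 37.

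Across 16640 genes, 1673 were higher in high-chaperone livers (10.1%) and 1260 lower (7.57%) by limma with the Eif2s3y class as a covariate and Benjamini-Hochberg adjustment at 0.05. Without the 32 arrays that stood apart, 7.86% were higher and 4.9% lower. Most differences were small, and 1.14% of genes were at least 1.2-fold higher and 0.565% at least 1.2-fold lower. The median difference over all genes was -0.01 on the log2 scale. Over 8 lists of the ER, the unfolded protein response and early transport, 64% of the measured genes were higher and 2 genes were lower, with a median log2 difference of 0.14. These lists were written with earlier results of these data known, so their counts describe the lists and are read against the 10.1% of all genes called higher. That share includes many dim genes. When only the 8320 genes above the median mean were tested, 19.9% were higher and 13.8% lower, and most list members were among them. In bulk liver RNA, a different number of cells of a type and a different amount of RNA per cell cannot be told apart.

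ER chaperones and their partners were higher almost throughout, with 14 of 17 measured members passing and none lower (median log2 difference 0.37). Manf, which encodes an ER-resident secreted neurotrophic factor that binds BiP, ran from 8.73 through 9.59 to 10.42 in low and from 9.94 through 11.09 to 13.21 in high livers. The sets overlapped in part, since 61 of 73 high livers lay above every low liver, but within each Eif2s3y class they did not overlap. Manf was 2.75-fold higher (log2 difference 1.46 ± 0.06 SE, n = 73 and 73, limma adjusted p = 7.49e-47), the largest positive difference among genes above the median mean. Sdf2l1, a partner of the ER DnaJ proteins, ran from 6.09 through 7.13 to 8.10 in low and from 6.96 through 8.34 to 11.69 in high livers and was 2.46-fold higher. Hyou1, the large Hsp70-type nucleotide exchange factor of BiP, had medians of 7.79 and 8.62 and was 1.90-fold higher. Both sets overlapped for these genes, with 43 high livers above every low liver for Sdf2l1 and 45 for Hyou1.

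Dnajb11, a J-domain co-chaperone of BiP, was 1.71-fold higher (medians 9.69 and 10.45), and all 73 high livers lay above the low median. Hspa13, an Hsp70 relative of the microsome, was 1.53-fold higher but overlapped widely, with 16 high livers above every low liver. Hsp90b1, the ER Hsp90 known as GRP94, ran from 10.79 through 11.69 to 12.01 in low and from 11.56 through 12.07 to 13.44 in high livers, a 1.39-fold difference. Dnajc3, which also restrains PERK, was 1.37-fold higher, and the lectin chaperone calreticulin, Calr, 1.30-fold. The J-domain gene Dnajb9 was 1.29-fold higher, with 0.59 on the log2 scale in the Eif2s3y-high and 0.15 in the Eif2s3y-low class. Smaller differences were measured for Creld1 (0.28), Cnpy3 (0.22), Dnajc1 (0.13), calnexin, Canx (0.10), and Sdf2 (0.08), all log2 values. Sil1 (0.06, adjusted p = 0.0691), Dnajc10 (0.05, adjusted p = 0.733) and Cnpy2 (0.02, adjusted p = 0.653) did not pass. Without the 32 arrays that stood apart, 14 of the 17 still passed, with a median of 0.28.

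**Figure D2:**
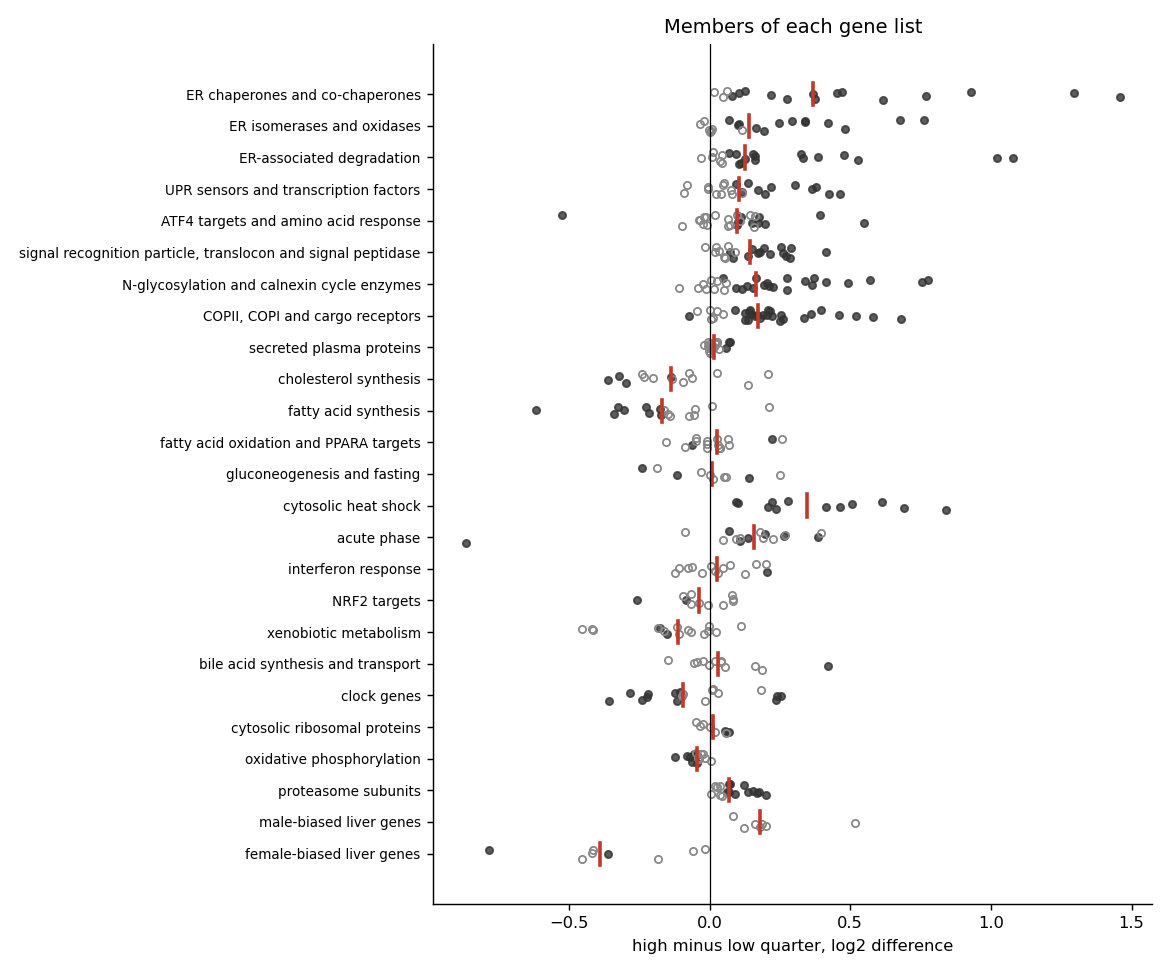
Log2 difference between high-chaperone and low-chaperone livers (horizontal axis) for every measured member of 25 gene lists, filled where the adjusted p is under 0.05 and open otherwise, with the list median as a red line. Members of the ER, degradation, glycosylation, transport and heat shock lists lie mostly to the right of 0, and those of the lipid synthesis lists mostly to the left.

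Enzymes that form and shuffle disulfide bonds in the ER ranged from clear differences to none. Of 20 measured, 13 were higher and none lower (median 0.14), and 9 without the arrays that stood apart (median 0.08). Ero1b, an ER oxidase that feeds oxidizing power to the isomerases, ran from 8.25 through 8.64 to 9.27 in low and from 8.74 through 9.34 to 10.96 in high livers, a 1.70-fold difference (adjusted p = 3.05e-31). Every high liver lay above the low median. The isomerase genes Pdia4 (1.60-fold, medians 10.16 and 10.74) and Pdia3 (1.40-fold) and the thioredoxin-domain gene Txndc11 (1.34-fold) followed. P4hb, which encodes the abundant isomerase PDI, differed by 0.07 on the log2 scale (adjusted p = 0.0134), and by 0.05 without the arrays that stood apart (adjusted p = 0.0661).

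Genes of ER-associated degradation, which moves misfolded proteins to the cytosol, were higher in 15 of 21 and lower in none (median 0.13). The core ubiquitin ligase gene Syvn1 (HRD1) ran from 7.40 through 7.86 to 8.52 in low and from 7.89 through 8.76 to 12.09 in high livers and was 2.03-fold higher (log2 difference 1.02 ± 0.08, adjusted p = 3.33e-23). Derl3, a derlin of the retrotranslocation channel, ran from 6.01 through 6.63 to 7.80 and from 6.26 through 7.68 to 11.66 and was 2.11-fold higher. Both reached their highest values in Eif2s3y-high livers, and Derl3 overlapped more, with 30 high livers above every low liver against 42 for Syvn1. Sel1l, the partner of HRD1, was 1.44-fold higher and Ubxn4, which recruits p97 to the ER, 1.39-fold. Herpud1, the least moved of the 21, was bright (mean 11.80) and differed by 0.01 (adjusted p = 0.902). Edem1, a mannosidase-like lectin of the pathway, differed by 0.05 (adjusted p = 0.284) by its brightest probe but by 0.31 by its second probe (adjusted p = 2.03e-12), so its probes disagree.

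Among sensors and transcription factors of the response, 11 of 22 were higher and none lower, with a median of 0.10. Xbp1 ran from 10.64 through 10.98 to 11.80 in low and from 10.93 through 11.48 to 12.37 in high livers and was 1.34-fold higher (adjusted p = 2e-15). All but 2 of the high livers lay above its low median. Creb3l2, an ER-anchored relative of ATF6, was 1.38-fold higher, Atf6b 1.30-fold, and Wfs1, which encodes the ER protein wolframin, 1.29-fold. Among the sensor genes, Eif2ak3 (PERK) was 1.23-fold higher, Ern1 (IRE1) 1.16-fold and Atf6 1.14-fold. For Ern1 the second probe gave 0.07 on the log2 scale (adjusted p = 0.107). Total Xbp1 signal does not separate the spliced from the unspliced mRNA.

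In the PERK branch, Atf4 differed by 0.12 (adjusted p = 0.0061) and Ddit3, which encodes the proapoptotic factor CHOP, by 0.17 (adjusted p = 0.00257), which became 0.10 without the arrays that stood apart (adjusted p = 0.0521). Creb3 (0.14) and the liver factor gene Creb3l3 (0.09) also passed. Atf3 (0.11, adjusted p = 0.0744) and Ppp1r15a (GADD34, 0.05, adjusted p = 0.306) did not. Of 26 measured ATF4 targets and amino acid response genes, 9 were higher and 1 lower (median 0.10), or 8 and 1 without the arrays that stood apart (median 0.05). Fgf21, a hormone released by the stressed or fasted liver, ran from 4.86 through 5.61 to 6.98 in low and from 4.67 through 6.0 to 9.65 in high livers and was 1.46-fold higher (adjusted p = 0.000257). Its sets overlapped widely, since 20 high livers lay below the low median. The tRNA synthetase genes Wars (1.31-fold) and Aars (1.15-fold) and the factor gene Cebpg (1.13-fold) were higher, while Asns (0.14, adjusted p = 0.144) and Trib3 (0.11, adjusted p = 0.387) did not pass. The index as a number over all livers was an alternative chosen after seeing the data. With it 14 of the 26 were higher and 3 lower, where 15.4% and 14.1% of all genes were. Asns then passed (0.11 per unit of the index, adjusted p = 6.19e-06). The lower member was Vldlr, which encodes the receptor for very low density lipoprotein, with medians of 5.72 in low and 4.82 in high livers (log2 difference -0.53, adjusted p = 0.000279, lower in 13 of 13 label blocks that held at least 2 livers of each set).

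Entry into the ER, glycosylation and export were higher together. For the signal recognition particle, translocon and signal peptidase, 14 of 22 were higher and none lower (median 0.14). Srprb, a subunit of the receptor for the signal recognition particle, was 1.33-fold higher (medians 6.07 and 6.38), the peptidase subunit gene Spcs2 1.22-fold, Srp68 1.22-fold and the translocon pore gene Sec61a1 1.21-fold. Of 29 N-glycosylation and calnexin cycle enzymes, 20 were higher and none lower (median 0.17). Gmppb, which makes GDP-mannose, ran from 5.63 through 6.34 to 7.10 in low and from 6.18 through 6.97 to 10.06 in high livers and was 1.71-fold higher. Gfpt1, the first enzyme of the hexosamine pathway that supplies UDP-GlcNAc, was 1.69-fold higher, and 72 of 73 high livers lay above its low median. Slc35b1, a nucleotide transporter of the ER membrane, was 1.48-fold higher, Ostc of the oligosaccharyltransferase 1.41-fold and the mannosyltransferase gene Alg12 1.33-fold.

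Vesicle coat and cargo receptor genes were higher in 25 of 32 and lower in 1 (median 0.17). The COPII coat genes Sec23b (1.60-fold, medians 8.05 and 8.70) and Sec24d (1.43-fold) and the p24 cargo receptor genes Tmed3 (1.5-fold) and Tmed9 (1.38-fold) led. Sar1b, the COPII GTPase needed for chylomicron and lipoprotein export, was lower by 0.07 on the log2 scale (adjusted p = 0.0151), and -0.05 with label block in the model (adjusted p = 0.147). The secreted cargo itself differed little. Of 18 secreted plasma protein genes, 3 were higher and none lower (median 0.02). They were the fibrinogen chain genes Fga (0.06), Fgb (0.07) and Fgg (0.07), and with label block in the model Fgb (adjusted p = 0.0925) and Fgg (adjusted p = 0.0653) no longer passed. Alb, the albumin gene, had medians of 14.56 in low and 14.55 in high livers (adjusted p = 0.858).

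The heat shock genes, mostly cytosolic, respond to HSF1 rather than to ER sensors, and 12 of 12 measured members were higher (median 0.35). The list also held the mitochondrial chaperonin gene Hspe1 (0.10). With label block in the model 10 of the 12 passed (median 0.285), and 10 passed with livers ranked by Hspa5 alone. Hsph1, an Hsp110 nucleotide exchange factor, ran from 8.05 through 8.70 to 9.60 in low and from 8.26 through 9.59 to 10.47 in high livers and was 1.79-fold higher (adjusted p = 2.08e-24). Hsp90aa1, the inducible cytosolic Hsp90, had medians of 10.85 and 11.61 and was 1.61-fold higher. The small heat shock gene Hspb1 was 1.53-fold higher and Hspa4l, another Hsp110-type gene, 1.42-fold. The inducible Hsp70 gene Hspa1b was 1.38-fold higher (adjusted p = 0.00642) and 0.33 on the log2 scale with label block in the model (adjusted p = 0.0964). Its near-identical neighbour Hspa1a may share its probe signal. Hsp90aa1 was higher by about the same amount in the Eif2s3y-high (0.69) and Eif2s3y-low (0.69) classes. The 19S proteasome gene Psmd1 was 1.13-fold higher, and 11 of 17 proteasome genes passed, all higher (median 0.07), or 7 without the arrays that stood apart. A heat shock element (GAANNTTCNNGAA on either strand) was present in 3 of the 10 heat shock genes with a promoter window, against 0.596% of all genes with one. Among all genes called higher the share was 0.937%, and among those called lower 0.501%.

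**Figure D3:**
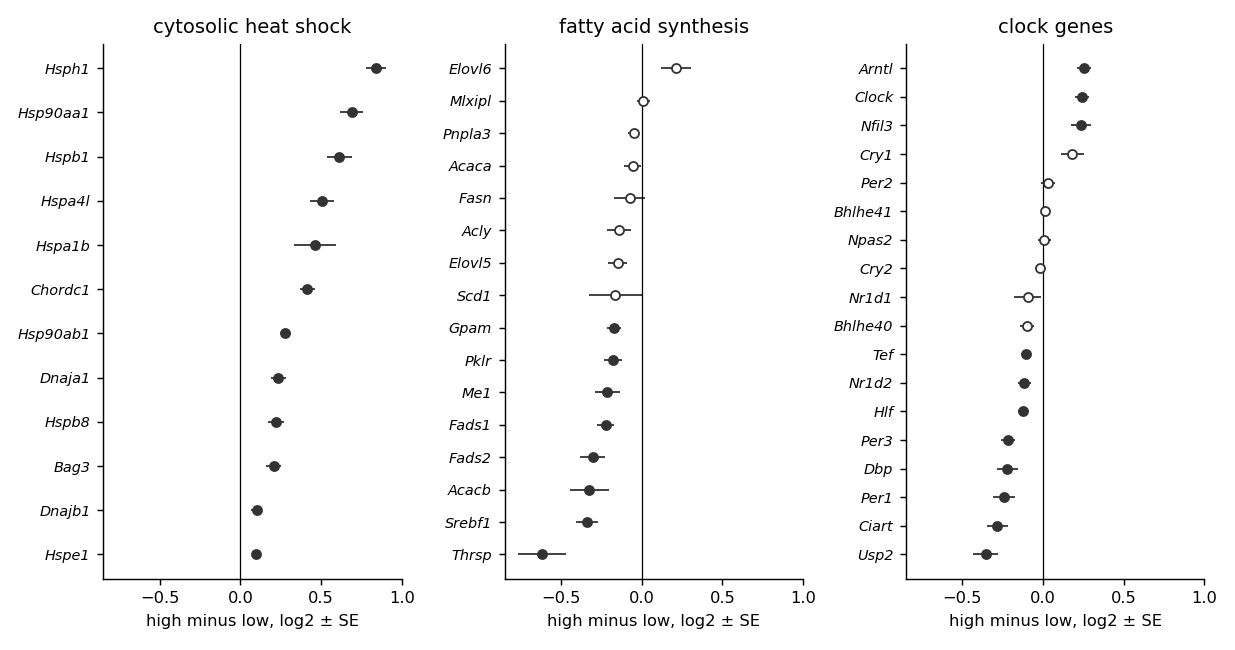
Log2 difference between high-chaperone and low-chaperone livers with its SE for the members of 3 lists outside the ER, filled where the adjusted p is under 0.05. All 12 heat shock genes lie above 0, the 8 called fatty acid synthesis genes below 0, and the called clock genes on both sides.

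Lipid synthesis went the other way. Of 16 fatty acid synthesis genes, 8 were lower and none higher (median -0.17), where 7.57% of all genes were lower. Thrsp, an insulin and carbohydrate responsive lipogenic gene, ran from 10.82 through 12.24 to 13.14 in low and from 7.71 through 11.84 to 13.22 in high livers, a log2 difference of -0.62 ± 0.15 (adjusted p = 0.000726). The high livers spread far wider, and 47 of 73 lay below the low median. Srebf1, the transcriptional activator of lipogenesis, had medians of 11.25 and 10.96 (difference -0.34, adjusted p = 8.38e-05), and the desaturase gene Fads2 differed by -0.30. The mitochondrial acetyl-CoA carboxylase gene Acacb differed by -0.32 (adjusted p = 0.0418), and its call was lost with label block in the model (adjusted p = 0.164) and without the arrays that stood apart (adjusted p = 0.0693). Fasn, the fatty acid synthase gene, differed by -0.07 (adjusted p = 0.671), so the core enzyme did not pass. With label block in the model 5 of the 16 passed.

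Cholesterol synthesis genes were lower in 4 of 14 and higher in none (median -0.14), where 7.57% of all genes were lower. The sterol enzymes Nsdhl (-0.36), Dhcr7 (-0.32), Sc5d (-0.30) and Fdft1 (-0.14) passed. Nsdhl overlapped almost entirely, from 7.30 through 9.13 to 10.45 in low and from 6.89 through 8.50 to 9.96 in high livers. With label block in the model 2 of the 14 passed, and Dhcr7 (adjusted p = 0.0831) and Fdft1 (adjusted p = 0.0884) did not. With livers ranked by Hspa5 alone 2 also passed, and Nsdhl (-0.25, adjusted p = 0.0828) and Dhcr7 (adjusted p = 0.111) did not. The second probe of Sc5d gave 0.04 (adjusted p = 0.71), so its probes disagree. Outside the lists, Acss2, which makes acetyl-CoA from acetate for lipid synthesis, differed by -0.49 (adjusted p = 0.000262).

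Clock genes moved in both directions, with 3 of 18 higher and 8 lower, where 10.1% of all genes were higher and 7.57% lower. Arntl (BMAL1) was 1.19-fold and Clock 1.18-fold higher, while Usp2 (-0.36), Ciart (-0.28), Per1 (-0.24) and Dbp (-0.22), all rhythmic outputs or repressors of the clock, were lower. The second probe of Clock gave 0.13 (adjusted p = 0.0586). Usp2 ran from 8.15 through 8.98 to 9.44 in low and from 5.58 through 8.77 to 9.37 in high livers, so its lowest values were lower in the high livers while the upper ends nearly met. Without the arrays that stood apart, 4 of 18 were higher and 4 lower, and Per1 (-0.15, adjusted p = 0.121) and Dbp (-0.12, adjusted p = 0.128) no longer passed. The time of sampling was not given in the labels, so its part in these differences was not tested.

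Thrsp and Acss2 were among the 10 largest negative differences of genes above the median mean, and of these 10 only Thrsp was a lipid synthesis list member. Mt2, a zinc-binding metallothionein gene, ran from 7.15 through 11.41 to 12.67 in low and from 7.21 through 10.61 to 12.78 in high livers (difference -0.87 ± 0.18, adjusted p = 0.000133), and Mt1 differed by -0.58. Both were lower in 12 of 13 label blocks, although the full ranges overlap. Upp2, a liver uridine phosphorylase, ran from 10.25 through 11.13 to 11.62 in low and from 5.18 through 10.75 to 11.23 in high livers (-0.77, adjusted p = 4.36e-06), and 68 of 73 high livers lay below the low median. Hao2, a hydroxyacid oxidase, differed by -0.78 (adjusted p = 0.00934), a call lost with label block in the model (-0.57, adjusted p = 0.137). Cyp2g1 (-0.71), the DNA repair gene Dclre1a (-0.52), the thioesterase gene Acot3 (-0.51) and the sulfotransferase gene Sult1c2 (-0.49) completed these 10. Dclre1a and Sult1c2 were lower in all 13 label blocks. Hao2 belonged to a list of 8 measured female-biased liver genes, of which 2 were lower and none higher (median -0.39). The list median was -0.55 in the Eif2s3y-high and -0.05 in the Eif2s3y-low class, with no call for a difference between classes. With label block in the model none of the 8 passed. In the middle livers 3 of the 8 were lower with the index, Hao2 among them (-1.70, limma adjusted p = 0.00268). None of 7 male-biased genes passed between the outer sets (median 0.18).

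Beside ER, glycosylation and heat shock genes, the 10 largest positive differences held H3c15 and Egr1. H3c15, a replication-type histone H3 gene whose near-identical copies may share its probe signal, was 1.81-fold higher (adjusted p = 8.11e-13). Egr1, an immediate early gene, ran from 4.92 through 7.57 to 10.33 in low and from 5.83 through 8.55 to 11.75 in high livers, and its 1.70-fold difference (adjusted p = 0.00462) fell to 0.46 on the log2 scale with label block in the model (adjusted p = 0.162). Acute phase genes were higher in 6 of 16 and lower in 1, where 10.1% of all genes were higher and 7.57% lower. The counts were 4 and 1 with label block in the model or without the arrays that stood apart. Socs3, the feedback inhibitor of IL-6 signalling, was 1.31-fold higher, the lower member was Mt2, and Lcn2 did not pass (0.40, adjusted p = 0.31). With the index as a number over all livers, an alternative chosen after seeing the data, 13 of the 16 were higher, where 15.4% of all genes were, and Lcn2 passed (0.38 per unit of the index, adjusted p = 0.000354). Nr0b2, the bile acid responsive repressor SHP, was 1.34-fold higher (adjusted p = 0.01) but not with label block in the model (adjusted p = 0.12). It was the single called gene of 12 in bile acid synthesis and transport. The coactivator gene Ppargc1a (-0.24), the NRF2 target gene Nqo1 (-0.26) and the complex I gene Ndufs1 (-0.12) were lower, and the lipid droplet gene Plin2 was higher (0.22). Oxidative phosphorylation had 7 of 14 lower (median -0.05), where 7.57% of all genes were lower. With label block in the model 4 were lower, where 5.2% of all genes were.

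Markers of other cells moved little. None of 11 Kupffer cell, 10 T and NK cell, 11 endothelial, 6 cholangiocyte, 10 pancreas, 6 adipose or 7 muscle markers passed, and 0 of these genes had an unadjusted p under 0.05 in limma. Median log2 differences were -0.13 in the Eif2s3y-high and 0.11 in the Eif2s3y-low class for Kupffer markers. They were -0.11 and 0.07 for T and NK markers, and no gene of either list was called for a difference between classes. Of 10 stellate markers none passed, with 2 at an unadjusted p under 0.05. With the index as a number over all livers, 4 stellate and 1 endothelial marker were lower, where 14.1% of all genes were. None of 7 hepatocyte markers passed, with 1 at an unadjusted p under 0.05. Pancreas cells are rich in ER chaperones, and the pancreatic lipase gene Pnlip had medians of 2.93 in low and 2.85 in high livers (difference -0.16, adjusted p = 0.706). Plasma cells are rich in them too, and of 7 B and plasma cell markers Derl3 alone passed, while the immunoglobulin joining chain gene Jchain differed by 0.18 (adjusted p = 0.281). Of 7 neutrophil markers, 2 passed, S100a8 (0.39, adjusted p = 0.017) and S100a9 (0.29, adjusted p = 0.0141). They were the only 2 of the 7 with a positive difference, and the list median was -0.03. The summed intensity of the 7 neutrophil markers ran from 138.5 through 175.1 to 364.2 in low and from 142.3 through 180.8 to 857.6 in high livers. Both calls were lost with label block in the model (adjusted p = 0.0966 for S100a8 and 0.0865 for S100a9) and without the arrays that stood apart (0.117 and 0.0719), and their part in the acute phase difference was not tested.

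The middle livers, which the 2 sets do not use, were fitted with the index as a number and the Eif2s3y class as a covariate. There, 1.39% of genes were higher with the index and 1.92% lower. These shares fell to 0.306% and 0.168% without the arrays that stood apart and to 0.619% and 0.631% with label block in the model. Of the 1673 genes higher in high-chaperone livers, 83.3% had a positive slope in the middle livers, where 54.1% of all genes had one. Of the 1260 lower genes 84.4% had a negative slope, against 45.9% of all genes. Of the genes called higher in the middle livers 71.6% were also called higher between the outer sets, and of those called lower 64.4%. The same genes were 9.92% of the 1673 and 16.3% of the 1260. None was called in opposite directions. Manf gained 0.69 ± 0.04 on the log2 scale per unit of the index (adjusted p = 5.95e-33), Syvn1 0.47 ± 0.04 (adjusted p = 9.61e-18), Dnajb11 0.38 ± 0.04 (adjusted p = 6.56e-12) and Ero1b 0.37 ± 0.04 (adjusted p = 9.19e-12). Xbp1 gained 0.38 (adjusted p = 0.000352) and Hsph1 0.41 (adjusted p = 0.000751). Hsp90b1 (0.09, adjusted p = 0.482), Pdia3 (-0.02, adjusted p = 0.96), Hspa13 (0.05, adjusted p = 0.905) and Eif2ak3 (-0.02, adjusted p = 0.893), all called between the outer sets, did not pass there. Nor did H3c15 (0.11, adjusted p = 0.729) or Egr1 (-0.21, adjusted p = 0.732). Of the lipid synthesis and clock genes, Thrsp (adjusted p = 0.4), Nsdhl (adjusted p = 0.9) and Usp2 (adjusted p = 0.709) did not pass either. None of the 16 fatty acid or 14 cholesterol synthesis genes passed there. Of 18 clock genes 1 was lower with the index and none higher. Vldlr, of the ATF4 target list, did pass (-0.81, adjusted p = 0.00452).

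**Figure D4:**
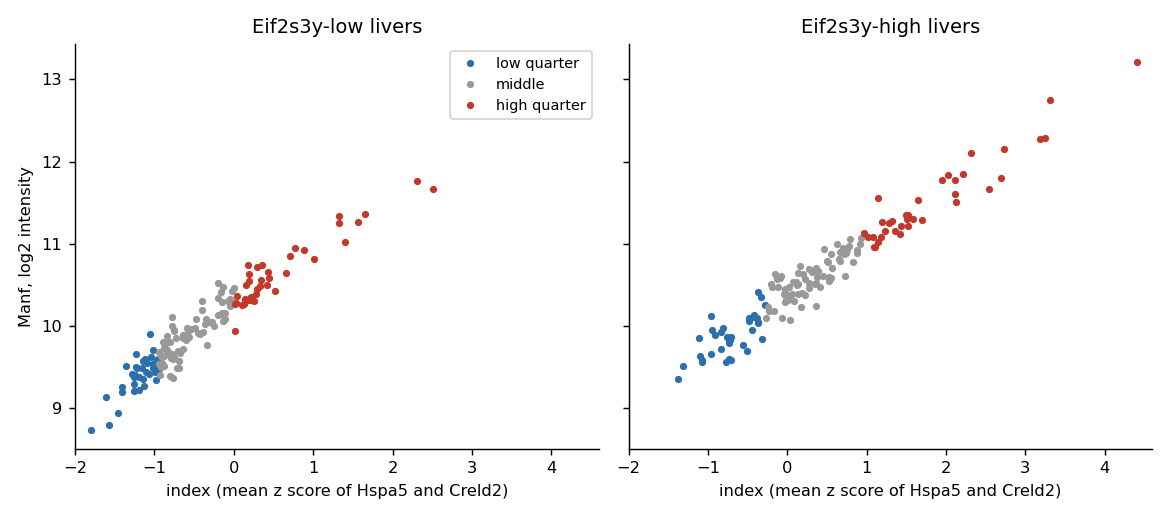
Log2 intensity of Manf (vertical axis) against the index of Hspa5 and Creld2 (horizontal axis) in each of 294 livers, by Eif2s3y class and coloured by low-chaperone, middle and high-chaperone livers. Manf follows the index through the middle livers as well as at both ends.

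The difference within each Eif2s3y class was also estimated. Both estimates came from the same limma fit over both classes, which shares the estimate of spread of each gene between them. Within the Eif2s3y-high class 9.99% of genes were higher and 5.59% lower, and within the Eif2s3y-low class 1.45% and 0.883%. The index gap between the sets was 2.53 in the Eif2s3y-high and 1.78 in the Eif2s3y-low class, a ratio of 1.43, so the classes were not matched in how far apart the sets were chosen. A test of the difference between classes called 23 genes (0.138%), all with the larger value in the Eif2s3y-high class, and 10 of them were members of the 8 secretory lists. No gene was called with the larger value in the Eif2s3y-low class, where 543 had an unadjusted p under 0.05 in limma.

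Syvn1 differed by 1.40 in the Eif2s3y-high and 0.65 in the Eif2s3y-low class (interaction adjusted p = 0.00947), with high-liver medians of 9.21 and 8.32 and low-liver medians of 7.96 and 7.73. Derl3 differed by 1.5 and 0.67 (adjusted p = 0.0384). Arfgap3, a GTPase activator of COPI vesicles, differed by 0.85 and 0.17 (adjusted p = 0.00947), and Alg2, a mannosyltransferase of the glycan precursor, by 0.51 and 0.04 (adjusted p = 0.0157). Alg2 in the Eif2s3y-low class had nearly equal medians of 6.82 in low and 6.83 in high livers. Ficd, which attaches AMP to BiP and removes it, differed by 0.48 and 0.02 (adjusted p = 0.0263). Manf (1.66 and 1.27, adjusted p = 0.189) and Hyou1 (1.11 and 0.75, adjusted p = 0.405) were not called. With label block in the model 1 gene was called, and without the arrays that stood apart 0 were, Syvn1 then having an interaction of 0.50 (adjusted p = 0.0796). Of those arrays, 8 were Eif2s3y-high and 4 Eif2s3y-low livers of the high-chaperone set.

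**Figure D5:**
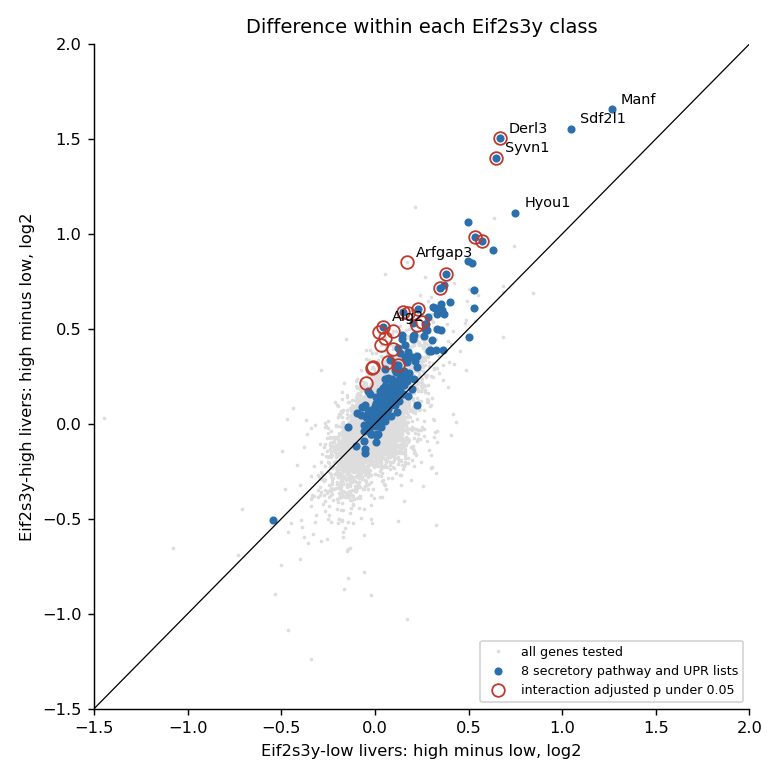
Log2 difference between high-chaperone and low-chaperone livers in the Eif2s3y-low (horizontal) and Eif2s3y-high (vertical) class for all genes tested in grey, members of the 8 secretory and unfolded protein response lists in blue, and the 23 genes called for a difference between classes ringed in red. The line marks equal differences, and the ringed genes all lie above it.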

How the data were processed

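Liver RNA of 294 F2 mice was measured on Affymetrix arrays. The deposited values are intensities on a linear scale, 1 per probe and array, normalized by the authors with RMA per the submitters' processing notes; version and settings are not given in the sources used here. Each title, and so each liver, stands for 1 animal, and the number of arrays limits the precision. The log2 was taken with no pseudocount. Of 32640 probes, 25508 had 1 gene symbol in the platform annotation, 7132 had none and 0 had several. Of 16788 symbols, 13916 were current, 2830 were updated through synonyms and 42 kept. Each of 16643 genes was read from its probe of highest mean. Hspa5, Creld2 and Eif2s3y were not tested.

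Differences were fitted with limma 3.58.1 in R 4.3.3, with empirical Bayes moderation, two-sided, adjusted by Benjamini-Hochberg over 16640 genes. The threshold was 0.05. Values after ± are SE. The fit was tested on simulated data. The 37 lists held 582 genes, 501 of them measured. The index, the members and the lists were chosen with earlier results of these data known.

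Genes were named by rule: the 10 largest positive and negative called differences above the median mean with equal sign in both classes, up to 4 called members and the least moved member of each list, all measured chaperones and sensors, and the 6 largest interactions. Some are left out for length. Genes outside the rule (among them Edem1, P4hb, Asns, Trib3, Fasn, Alb, Alg12, Lcn2, Jchain, Pnlip and Ficd) were chosen after their values were seen.

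Alternatives were quantile normalization, label block (the first 3 digits of the title number) or the first principal component as a covariate, no class term, arrays or livers left out, wider sets of livers, 1 index gene, the second probe and a filter on dim genes.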

Additional observations from a re-analysis of the deposited data

Results flagged for a closer look

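The difference between high-chaperone and low-chaperone livers was larger in the Eif2s3y-high than in the Eif2s3y-low class for 23 genes by limma's interaction term (adjusted p under 0.05). The excess, on the log2 scale, was 0.84 for Derl3, 0.75 for Syvn1, 0.44 for Dnajb9, 0.39 for Ero1b and 0.37 for Sel1l, which serve ER folding and degradation, and 0.46 for Ficd, which modifies BiP. In glycan supply it was 0.47 for Alg2 and 0.45 for Gfpt1. In entry and transport it was 0.68 for Arfgap3, 0.41 for Tmed3, 0.38 for Srprb, 0.29 for Stx5a and 0.19 for Sec11a. The other genes were Nme6 (0.41), Spryd3 (0.40), Srm (0.39), Akap17b (0.38), Yrdc (0.31), Ahcyl2 (0.31), Tbl2 (0.30), Ubfd1 (0.28), Dtwd1 (0.27) and Prmt3 (0.26). In the Eif2s3y-low class, 10 of the 23 passed on their own and 20 had a positive difference. The index gap was 1.43 times as wide in the Eif2s3y-high class, and its part in the 23 calls was not tested by matching. With label block in the model 1 gene was called, and without the arrays that stood apart 0 were. With the index as a number, an alternative chosen after seeing the data, 24 genes were called.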

How the results depend on the processing

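Shares here are percent of the genes tested, 16640 except where another number is given. Between the sets 10.1% were higher and 7.57% lower, and across scaling, label block, first principal component, group width, index gene, no class term and pancreas alternatives both shares stayed within 1.5 times of these. The dim-gene filter left 8320 genes, of which 19.9% and 13.8% were called, a count within 1.5 times of the one without it. Without the 32 arrays that stood apart 4.9% were lower. The second probe, which exists for 5824 genes, gave 8.59% higher and 5.32% lower, and the index as a number over all livers, chosen after seeing the data, 15.4% and 14.1%. The middle livers were less stable than the 1.39% and 1.92% reported: quantile normalization gave 1.18% lower, label block 0.619% and 0.631%, leaving out the arrays that stood apart 0.306% and 0.168%, wider sets (a smaller middle) 0.018% and 0.00601%, Hspa5 alone 0.757% and 0.312%, and the second probe 0.807% and 3.07%, while no class term gave 20.3% and 19%. The interactions, 0.138% of genes, became 0.0781% with quantile normalization, 0.00601% with label block, 0 without the arrays that stood apart and with the second probe, 0.0841% with wider sets or Creld2 alone, 0.3% with Hspa5 alone, 0.21% without livers holding pancreas RNA and 0.264% with the first principal component. Fewer genes or livers enter the second probe and left-out alternatives, and the cause of the other changes was not tested. The middle livers had a mean index of 0.29 in the Eif2s3y-high and -0.54 in the Eif2s3y-low class. Without the class term, index and class therefore cannot be told apart in them. Of the values of named genes, 84.9% kept their call with label block and 89.1% without the arrays that stood apart. Directions turned for Alb, at 0.0021 with label block and 0.0051 with Hspa5 alone, and for Sc5d at 0.0403 with the second probe. No paired analysis was possible because the labels form 1 group and no replicate number is shared between sets. Dim genes carry little signal over background, which limits their differences.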
